A study of Mus musculus with 9 samples.

Results

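The cytosolic ribosomal protein genes encode the proteins of the 40S and 60S subunits of the ribosome that reads messenger RNA in the cytoplasm. They were taken by symbol from the gene tables of N2A cells, a mouse neuroblastoma line: a symbol of the form Rps or Rpl with a number, or Rpsa, Rplp0, Rplp1 or Rplp2, with no pseudogene and no S6 kinase gene, and with at least 50 read counts in each of the 9 libraries. Of 83 matching symbols, 75 met the count minimum, 28 of the small and 47 of the large subunit, among 21553 genes with counts. Rps18 was listed without counts, and Rps12, Rps13, Rps27, Rpl23a, Rpl3l, Rpl10l and Rps4y2 stayed under the minimum. The members closest to it were Rpl27, with at least 99 counts in every library, and Rpl10 with at least 105. Just outside it lay Rps12, with 34 to 147 counts, and Rpl23a, with 23 to 44.

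PolyA RNA was sequenced 48 hours after siRNA transfection. The first experiment has 1 library each of cells with Mbnl1 and Mbnl2 knocked down together, of cells with Nacc1 knocked down and of cells given a non-targeting siRNA pool as control. The second has 2 libraries each of Srrm4 knockdown, Zfp871 knockdown and its own non-targeting control. All cells thus received a lipid-borne siRNA pool, all came from 1 cell line, and every knockdown is partial and transient. Mbnl1, Mbnl2 and Srrm4 encode regulators of splicing, Nacc1 encodes a BTB domain protein that acts in transcription, and Zfp871 encodes a protein with zinc fingers. The series title places the comparisons in a study of how transcription factors bear on alternative splicing. Nothing in the labels ties the 2 libraries of a group to separate cultures, so p-values measure the spread between these libraries, which may be technical. In bulk RNA, fewer cells of a type and less RNA per cell cannot be told apart.

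A ribosome needs its proteins in matched amounts, and free copies of most of them are degraded. The genes therefore tend to be expressed together, from promoters without much cell type specificity, and make up a large part of the mRNA of growing cells. Their transcripts begin with a pyrimidine run, the 5' terminal oligopyrimidine (TOP) tract, through which mTOR signalling controls their translation. Many have processed pseudogenes, intronless copies elsewhere in the genome, so that short reads cannot always be placed on the parent gene.

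The targeted genes were lower in the libraries labelled with their knockdown. On the CPM scale (counts over library size with TMM factors), Mbnl1 stood at 45.4 and Mbnl2 at 18.2 in the Mbnl1/Mbnl2 knockdown, against 124 and 65.6 in the control, and Nacc1 at 51.8 in its knockdown, against 208. Srrm4 stood at 28.3 and 26.1 CPM in its knockdown and Zfp871 at 7.17 and 5.08 CPM in its own, against 66.8 and 96.7 CPM and against 17.6 and 26.2 CPM in the control. Some targets were also lower where another gene was targeted: Srrm4 stood at 44.9 and 53.7 CPM in the Zfp871 knockdown, against the same 66.8 and 96.7 CPM, and Mbnl1 at 82.4 CPM in the Nacc1 knockdown, against 124 CPM. Total counts ran from 44186088 to 63715449 a library. Of 12 neuroblastoma and neuronal markers, 10 had at least 50 counts in all 9 libraries, with a summed level of 4151 to 5894 CPM. The summed markers of glial, fibroblast, epithelial and immune cells reached at most 7.88 CPM.

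Short stretches around annotated start sites are shown for 5 members, because the members moved together in some comparisons below. Of these, 4 hold and 1 lacks any of 4 hexamers of the kind found in TOP tracts. The 1 without, Rpl14, still has a run of C and T across its start site, which the hexamers miss. Each runs from 50 bases before to 50 bases from the start site onward, 5' to 3' on the strand of the gene, from RefSeq on GRCm38.p6. Capitals mark the hexamer CTTTCC, the hexamer CTTTTC, the hexamer CTTTCT or the hexamer CTTTTT.
Rpl4 (chr9:64173337-64173436, plus strand): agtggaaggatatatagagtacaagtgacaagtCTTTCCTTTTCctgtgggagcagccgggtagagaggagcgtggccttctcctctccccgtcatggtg
Rpl27a (chr7:109519145-109519244, plus strand): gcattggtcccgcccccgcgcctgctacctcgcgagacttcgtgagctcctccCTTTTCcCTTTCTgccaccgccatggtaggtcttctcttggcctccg
Rpl35a (chr16:33056432-33056531, plus strand): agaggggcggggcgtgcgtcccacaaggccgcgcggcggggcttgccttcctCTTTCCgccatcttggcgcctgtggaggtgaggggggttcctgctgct
Rps15a (chr7:118116098-118116197, minus strand): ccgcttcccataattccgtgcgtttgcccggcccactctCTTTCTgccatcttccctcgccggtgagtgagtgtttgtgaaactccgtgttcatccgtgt
Rpl14 (chr9:120571467-120571566, plus strand): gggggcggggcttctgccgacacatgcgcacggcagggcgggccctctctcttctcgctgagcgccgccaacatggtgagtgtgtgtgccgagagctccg

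A promoter was given for 55 members. One of the 4 hexamers lay within 50 bases of a start site, on the strand of the RNA, in 34 of the 55, or 61.8%, against 17.4% of 27025 genes. Searched as their reverse complements, for the opposite strand, the shares were 10.9% of members and 16.1% of genes. The hexamers overlap one another, and genes with several start sites were counted once. The window also takes in bases before the start site. In Rpl4 and Rps15a the nearest hexamer opens at -11 and -10, before the annotated start of the RNA. Rpl35a has other annotated start sites, from which the hexamer opens at 32 and -29. The Rpl35a window shown above has it at 3. The Ets factor core CCGGAAG, searched on both strands over the whole 300 bases, was in 41.8% of members and 9.93% of genes. The median log2 change of the 34 members with a hexamer and of the 21 without one was -0.17 and -0.20 in the Mbnl1/Mbnl2 knockdown, 0.04 and 0.04 in the Nacc1 knockdown, 0.12 and 0.18 in the Srrm4 knockdown and -0.02 and 0.06 in the Zfp871 knockdown. Members without a hexamer may still have a TOP tract, so these groups do not part genes with a TOP tract from genes without one. Matches of letters are descriptions of these windows only.

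The 75 genes together took 3.71% and 3.44% of all counts in the Srrm4 knockdown and 3.42% and 3.12% in the Zfp871 knockdown, against 3.50% and 3.14% in their control. In the first experiment the shares were 2.97% in the Mbnl1/Mbnl2 knockdown and 3.31% in the Nacc1 knockdown, against 3.19% in the control. In every group of 2, the library lettered a had the higher share, and the groups of the second experiment that share a control overlapped with it. The log2 ratio of small to large subunit counts was -0.68 and -0.62 in the Srrm4 knockdown and -0.74 and -0.70 in the Zfp871 knockdown, against -0.80 and -0.77 in the control, so that neither knockdown overlapped with the control. The mean of the ratio was higher than in the control by 0.13 after Srrm4 knockdown and by 0.06 after Zfp871 knockdown. An exact two-sided permutation test gave p = 0.333 for both, the smallest that 2 libraries against 2 allow. In the first experiment the 3 libraries lay between -0.64 and -0.62.

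**Figure D1:**
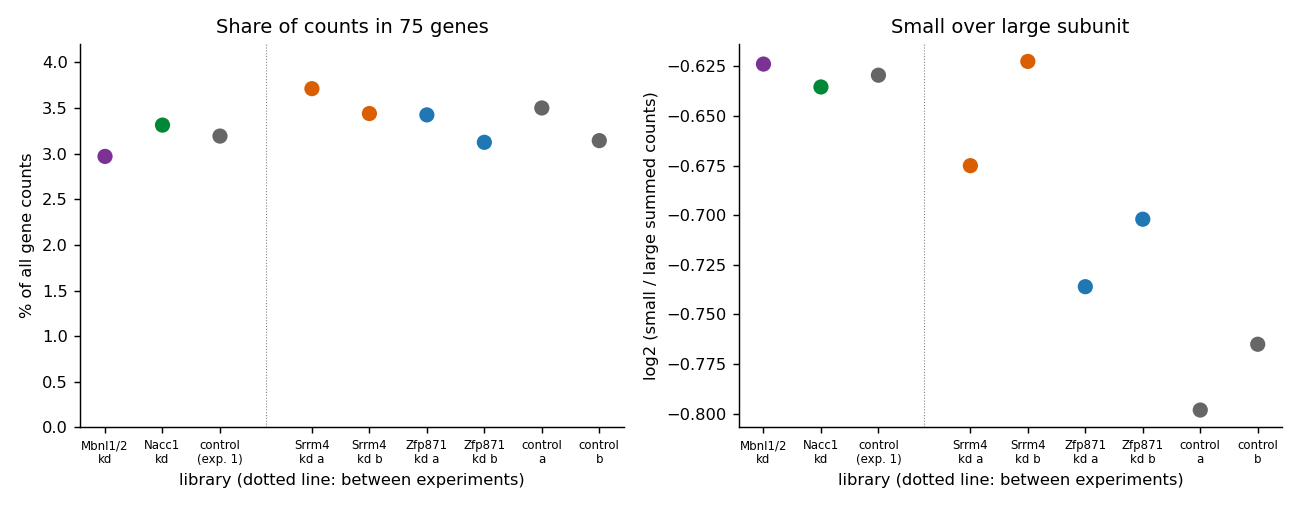
Left, percent of all gene counts that fall on the 75 ribosomal protein genes; right, log2 ratio of summed small to large subunit counts (the axis does not start at 0). Each point is 1 library, kd means knockdown, and the Srrm4 knockdown libraries, at -0.68 and -0.62, lie above the second control, at -0.80 and -0.77.

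Knockdown of Srrm4, the activator of neural microexons, left 1 member past the test. Rpl29 (GRCm38 chr9:106428889-106431568), a large subunit protein also described as a heparin-binding protein, stood at 9.59 and 9.02 CPM in the Srrm4 knockdown, against 20.2 and 16.0 CPM in the control. Both knockdown libraries were below both controls, and the gene fell by 0.96 on the log2 scale (SE 0.15, adjusted p = 0.0325, edgeR's quasi-likelihood test with Benjamini-Hochberg adjustment over 12378 genes). Of all genes tested, 3.29% were called lower and 1.41% higher, 4.7% in all. At an unadjusted p under 0.05 edgeR listed 18 members, where 24.8% of all genes were listed. The call for Rpl29 was lost when any 1 of the 6 libraries was left out, with log2 changes of -1.12 to -0.78, and with only the 4 libraries of the comparison, so that it rests on the full set; over all alternatives its adjusted p ran from 2.77e-06 to 0.202. Reads of Rpl29 were counted over 85 positions, and 5 named pseudogenes exist. In the authors' deposited table Rpl29 has a log2 change of -0.97 with an FDR of 0.000633. The same table has 1 member higher under an FDR of 0.05, Rps14, at 0.41 with an FDR of 0.0431.

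Most other members lay above the control after Srrm4 knockdown without passing the test. The median change was 0.15 on the log2 scale over the 75 genes, 0.20 over the small and 0.09 over the large subunit, beside a median of 0.00 over all genes tested, and 59 of the 75 were positive. Both knockdown libraries lay above both controls for 44 members, 20 small and 24 large, and below them for 3, Rpl26, Rpl29 and Rpl4; the shares of all genes were 27.3% and 26.5%. Rps14, whose loss in humans underlies the anaemia of the 5q deletion, stood at 286 and 269 CPM in the knockdown, against 197 and 219 CPM in the control, a log2 change of 0.42 (SE 0.10, edgeR adjusted p = 0.0728). Rpl39l, a copy of Rpl39 known from testis and tumour cells, had the highest change, 0.50 (SE 0.18, edgeR adjusted p = 0.155), and 18.3 and 24.4 CPM in the knockdown, against 13.6 and 16.6 CPM in the control. Rps2, at the mRNA entry side of the small subunit, followed Rps14 in size, with 109 and 91.6 CPM in the knockdown, against 68.6 and 83.1 CPM in the control, a change of 0.40 (SE 0.13, edgeR adjusted p = 0.127). Rpl4, which lines the exit tunnel, had 2239 and 2036 CPM in the knockdown, against 2687 and 2328 CPM in the control, a change of -0.23 (SE 0.12, edgeR adjusted p = 0.288). Rpl26, which lies near the tunnel's mouth, had 201 and 175 CPM in the knockdown, against 232 and 226 CPM in the control, a change of -0.28 (SE 0.10, edgeR adjusted p = 0.151). DESeq2 called 10 members where edgeR called 1: Rpl29 and, all with positive changes, Rpl13, Rpl13a, Rpl24, Rpl34, Rpl36a, Rpl38, Rps14, Rps15a and Rps4x; of all genes it called 15.3%. With the library letter as a block edgeR called 26 members, 23 higher and 3 lower, where 36.9% of all genes were called in either direction. The median stayed between 0.09 and 0.20 when 1 library was left out, and the small minus large difference between 0.05 and 0.11.

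**Figure D2:**
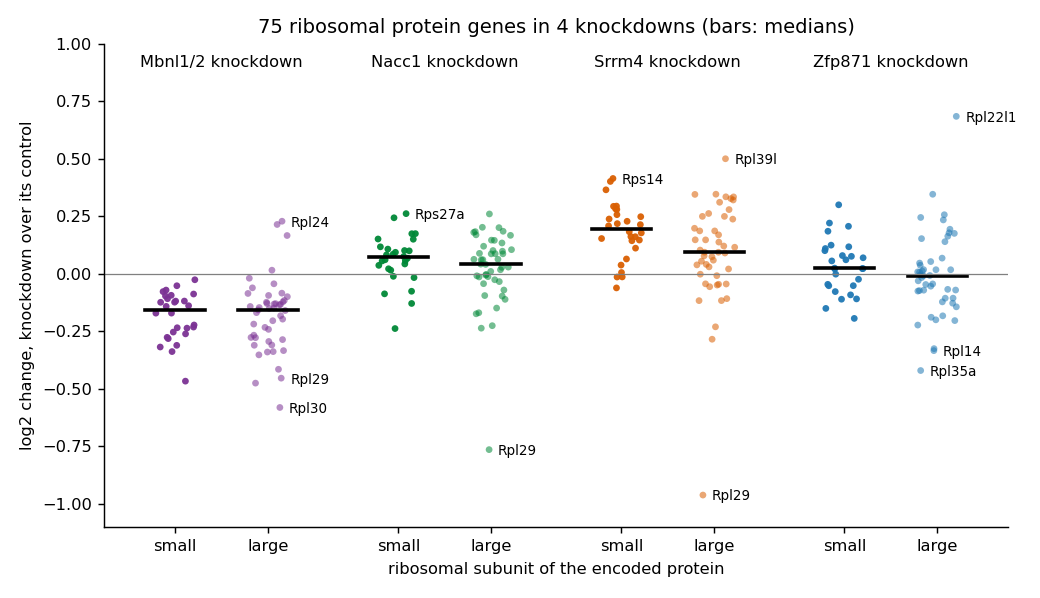
Log2 change of each of the 75 genes (points) in the 4 knockdowns, each over its own control, split by subunit; black bars are medians. The medians are -0.16 and -0.16 (small, large) in the Mbnl1/Mbnl2 knockdown, 0.07 and 0.04 in the Nacc1 knockdown, 0.20 and 0.09 in the Srrm4 knockdown and 0.02 and -0.01 in the Zfp871 knockdown, and Rpl29 is below 0 in all 4.

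Knockdown of Zfp871 gave no called member with edgeR, where 0.751% of all genes were called higher and 2.14% lower, 2.89% in all. At an unadjusted p under 0.05 edgeR listed 5 members, where 21.1% of all genes were listed, and DESeq2 called 2, Rpl14 and Rpl35a, beside 11.8% of all genes. With the library letter as a block edgeR called 9 members, beside 31.1% of all genes. The median change was 0.01 over all members, 0.02 over the small and -0.01 over the large subunit, beside -0.01 over all genes, and 38 of the 75 were positive. Libraries did not overlap with the control for 16 members above it and 8 below it, against 25% and 25.5% of all genes. Rpl35a (GRCm38 chr16:33056453-33060189, 79 countable positions), whose human counterpart is mutated in some patients with Diamond-Blackfan anaemia, had 28.7 and 24.6 CPM in the knockdown, against 35.8 and 35.6 CPM in the control, a change of -0.42 (SE 0.11, edgeR adjusted p = 0.0999). Rpl14 (GRCm38 chr9:120571517-120574653), of the large subunit, had 721 and 673 CPM in the knockdown, against 828 and 930.0 CPM in the control, a change of -0.33 (SE 0.10, edgeR adjusted p = 0.123). Rpl29 followed at -0.33 (SE 0.15), with 15.0 and 13.9 CPM in the knockdown, against 20.2 and 16.0 CPM, and its change was -0.13 without control library a and -0.48 without control library b. The 5 at an unadjusted p under 0.05 were Rpl14, Rpl35a and 3 copies of core genes, Rpl22l1, Rps27l and Rpl7l1, all above the control. The highest changes were those of Rpl22l1, Rpl27 and Rps27l, at 0.69, 0.35 and 0.30.

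Set directly against each other, the Zfp871 and Srrm4 knockdowns differed in 3 members, where 11.1% of all genes were called, 5.53% higher and 5.57% lower. At an unadjusted p under 0.05 edgeR listed 18 members, where 29.3% of all genes were listed. Rpl14 was lower in the Zfp871 knockdown, at 721 and 673 CPM, than in the Srrm4 knockdown, at 979 and 1038 CPM, a log2 difference of -0.53 (SE 0.10, edgeR adjusted p = 0.0263). Rpl35a was lower as well, at 28.7 and 24.6 CPM against 36.9 and 39.3 CPM in the Srrm4 knockdown, a difference of -0.51 (SE 0.11, edgeR adjusted p = 0.0362). Rpl29 was higher in the Zfp871 knockdown, at 15.0 and 13.9 CPM, than in the Srrm4 knockdown, at 9.59 and 9.02 CPM, a difference of 0.64 (SE 0.15, edgeR adjusted p = 0.0498). The groups did not overlap for any of the 3, but these were picked with the same libraries, and the share of all genes was not computed. Each of the 3 lost the call without any 1 of the 4 knockdown libraries. Rpl35a also lost it without either control library and with only the 4 knockdown libraries, where Rpl14 and Rpl29 kept it. Rpl29 also lost the call when TMM factors were computed without the ribosomal protein genes (edgeR adjusted p = 0.0505). DESeq2 called 10 members, these 3 among them, and 20.7% of all genes. With the library letter as a block edgeR called 24 members and 41.9% of all genes. The median difference was -0.15 over the members and -0.01 over all genes, and 60 of the 75 were negative.

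**Figure D3:**
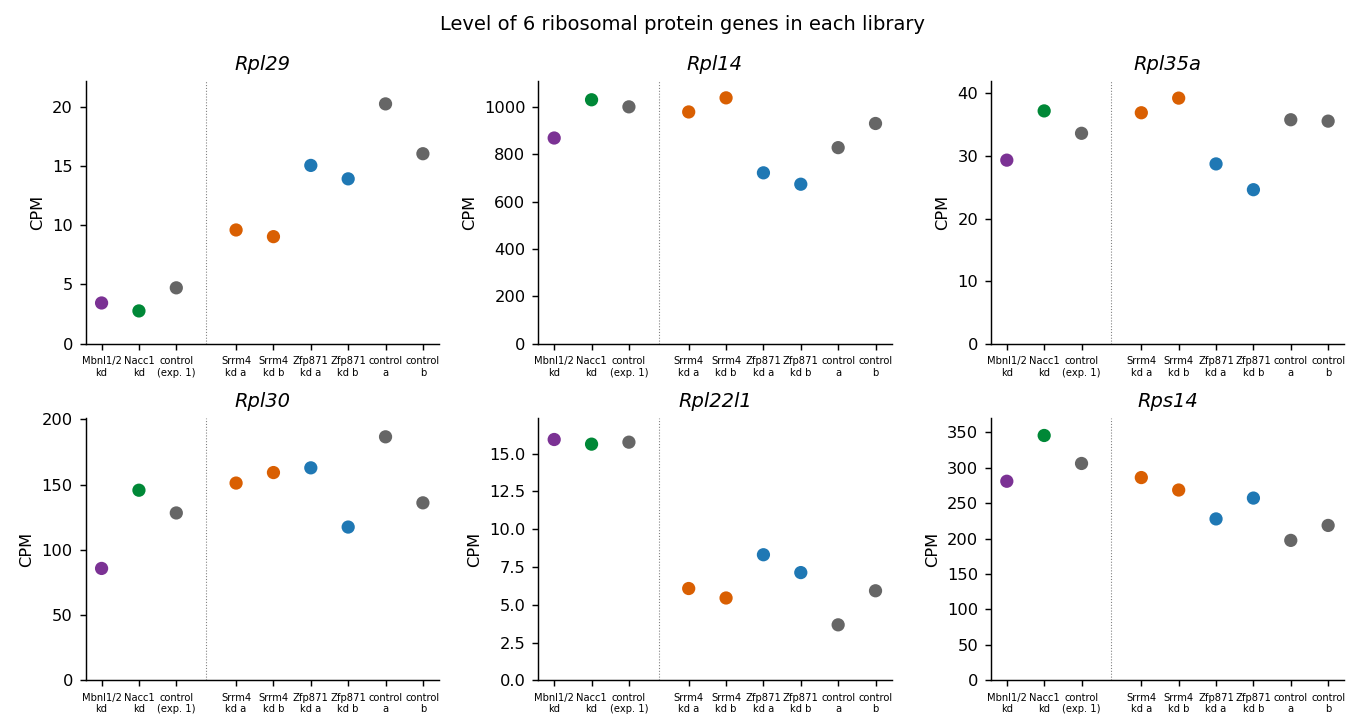
CPM (each axis from 0) of 6 ribosomal protein genes in each library; each point is 1 library, kd means knockdown, and the dotted line separates the experiments. Rpl29 is below the control of its experiment in every knockdown library, Rpl14 and Rpl35a are lowest in the Zfp871 knockdown within the second experiment, and Rpl30 is lowest in the Mbnl1/Mbnl2 knockdown.

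Knockdown of Mbnl1 and Mbnl2 came with lower levels across both subunits. The experiment has 1 library a group, so no p-value is given, and differences are set against 95% exact Poisson intervals, which cover counting error only. Of the 75 genes, 71 were below the control, all 28 of the small subunit among them, with a median log2 change of -0.16 in each subunit, beside -0.01 over 10666 genes with the same count minimum. Summed over the members, the knockdown had 28942 CPM, against 32313 CPM in its control. The 2 control libraries of the second experiment, which are of 1 group, had 34473 and 31793 CPM. How far libraries of 1 group differ in the first experiment cannot be read. The Poisson intervals lay apart for 58 lower and 3 higher members, against 30.2% lower and 23.3% higher among all genes. Such intervals narrow as counts rise. The members had a median of 10551 to 15321 counts a library, and the shares of all genes were not matched for counts. With library totals in place of TMM factors the members' median was -0.10 while that of all genes was 0.04, with 52 members lower and 3 higher with intervals apart, beside 21.9% and 33.1% of all genes. A single member went past a log2 change of 0.5 with intervals apart, where 2.95% of all genes did so downward, 2.48% upward and 5.44% in all. This was Rpl30, which in yeast binds its own transcript, with 85.8 CPM in the knockdown (83.2 to 88.3), against 128 CPM in the control (126 to 131), a change of -0.58. Next came Rpl31 with 19.6 CPM against 27.3 CPM in the control and a change of -0.48, and Rps3a with 3.15 CPM against 4.37 CPM and a change of -0.47. The highest was the entry under the symbol Rpl24, the name of an intersubunit bridge protein altered in the Belly spot and tail mouse. It had 51.6 CPM (49.6 to 53.6) in the knockdown, against 44.0 CPM (42.4 to 45.7) in the control. The copies Rpl39l and Rpl7l1 followed, at 0.21 and 0.17, and were the other 2 with intervals apart upward. Reads of Rpl24 were counted over 4950 positions, the most of any member, and whether they all come from that gene was not tested.

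Knockdown of Nacc1 left the members close to the control, apart from Rpl29. The median change was 0.06 over the members, 0.07 over the small and 0.04 over the large subunit, beside 0.01 over all genes, and 51 of the 75 were positive. Poisson intervals lay apart for 38 higher and 9 lower members, where 32.9% of all genes were higher and 30.6% lower in this way, again not matched for counts. Rpl29 alone passed the log2 change of 0.5, where 9.18% of all genes did so downward, 1.99% upward and 11.2% in all, with 2.76 CPM in the Nacc1 knockdown (2.35 to 3.21), against 4.70 CPM in the control (4.18 to 5.27), a change of -0.76. In the Mbnl1/Mbnl2 knockdown it stood at 3.43 CPM (2.94 to 3.97) against the same control library, a change of -0.45. These values rest on 166 counts in the Nacc1 knockdown and 176 in the Mbnl1/Mbnl2 knockdown, against 296 in the control. Rps3a and Rpl15 were the next lowest after Nacc1 knockdown, at -0.24 each, and the Poisson intervals of Rps3a overlapped. Rps27a, which is made as a fusion with ubiquitin, was the highest at 0.26, with 13.1 CPM against 10.9 CPM in the control. The entry under the symbol Rpl24, with the limit given above, followed at 0.26, and Rps28 at 0.24.

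Within the large subunit, the P stalk proteins recruit the GTPase factors of elongation. Rplp0 had 309 CPM in the Mbnl1/Mbnl2 knockdown and 314 CPM in the Nacc1 knockdown, against 335 CPM in their control. In the second experiment it had 821 and 767 CPM in the Srrm4 knockdown and 824 and 832 CPM in the Zfp871 knockdown, against 759 and 720.0 CPM in the control. Both knockdowns of that experiment lay above its control, by 0.10 (SE 0.08, edgeR adjusted p = 0.494) and 0.16 (SE 0.08, edgeR adjusted p = 0.320). Rplp1 had 649 CPM after Mbnl1/Mbnl2 and 653 CPM after Nacc1 knockdown, against 763 CPM. In the second experiment it had 947 and 929 CPM after Srrm4 knockdown and 830.3 and 826 CPM after Zfp871 knockdown, against 894 and 754 CPM. Rplp2 had 9.87 to 12.2 CPM in the first experiment and 24.8 to 34.8 CPM across the libraries of the second, with no call. Rpl5 and Rpl11, which with 5S ribosomal RNA hold Mdm2 in check when ribosome assembly fails, had changes of 0.14 and 0.25 after Srrm4 knockdown, 0.02 and -0.04 after Zfp871 knockdown, -0.15 and -0.29 after Mbnl1/Mbnl2 knockdown and 0.06 and -0.09 after Nacc1 knockdown, and edgeR called neither. Rps6, the substrate of S6 kinase in the small subunit, changed by -0.06 and -0.19 after Srrm4 and Zfp871 knockdown and by -0.03 and -0.01 after Mbnl1/Mbnl2 and Nacc1 knockdown, with no call.

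Several members are copies of another member, and their counts can share reads with it. Rpl22l1, the copy of Rpl22, had 8.31 and 7.13 CPM in the Zfp871 knockdown, against 3.67 and 5.93 CPM in the control, a log2 change of 0.69 that missed the test (SE 0.26, edgeR adjusted p = 0.200). Both Zfp871 libraries lay above both controls, and the change was 0.39 without control library a and 1.07 without control library b. In the Srrm4 knockdown it had 6.07 and 5.45 CPM, a change of 0.26 (SE 0.26, edgeR adjusted p = 0.574) that turned to -0.04 without control library a and was 0.65 without control library b. In the first experiment it had 15.9 CPM after Mbnl1/Mbnl2 and 15.6 CPM after Nacc1 knockdown, against 15.8 CPM. Rpl22 itself had 421 and 336 CPM after Zfp871 knockdown, against 339 and 299 CPM, a change of 0.25 (SE 0.13, edgeR adjusted p = 0.338). Rps27l, a p53-responsive copy of Rps27, had 65.1 and 65.8 CPM after Zfp871 knockdown, against 48.8 and 57.4 CPM, a change of 0.30 (SE 0.11, edgeR adjusted p = 0.196), and 65.7 CPM after Mbnl1/Mbnl2 knockdown, against 81.9 CPM. Rps27 was listed with at most 1 count. Rpl7l1, a copy of Rpl7 linked to early subunit assembly, had 134 and 132 CPM after Zfp871 knockdown, against 111 and 116 CPM, a change of 0.23 (SE 0.09, edgeR adjusted p = 0.200), whereas Rpl7 had 1038 and 1003 CPM against 982 and 993 CPM. Rpl39 had 206 and 220.0 CPM after Srrm4 knockdown, against 154 and 182 CPM, a change of 0.35 beside the 0.50 of Rpl39l. Rpl3l and Rpl10l, known from muscle and testis, reached at most 21 and 5 counts.

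Levels per countable position (RPKM, computed here from counts, the library's summed gene counts and the positions counted per gene) spread 3945-fold among the members in the first experiment and 2233-fold in the second. The highest averages over the 3 libraries of the first experiment were 8819 RPKM for Rplp1, 8126 for Rpl32 and 2634 for Rps25, and the lowest 9.99 for Rpl24, 9.21 for Rpl35 and 2.24 for Rpl21. In the second experiment the highest were 11074 RPKM for Rplp1, 8745 for Rpl32 and 4341 for Rps26, and the lowest 13.8 for Rpl22l1, 7.65 for Rpl24 and 4.96 for Rpl21. The median was 933 RPKM over the small and 544 over the large subunit in the first experiment, and 1159 and 554 RPKM in the second. Per length, Rpl22l1 stood at 8.47 to 37.2 RPKM in the 9 libraries and Rpl22 at 694 to 1195, Rpl39l at 22.9 to 47.6 and Rpl39 at 277 to 712, and Rpl7l1 at 45.6 to 65.6 and Rpl7 at 2170.3 to 2950.0, with Rps27l at 110.1 to 187. These levels depend on where reads could be placed. The number of positions was taken from the ratio of counts to the authors' cRPKM in the first experiment, where its 3 libraries gave the same number to within 0.320%, and ran from 20 for Rpl36 to 4950 for Rpl24, with a median of 425 and 13 members under 100. The same numbers of positions were used for the second experiment, where they were not checked, so its levels and ranks per length rest on them. By symbol, 58 of the 75 have a named pseudogene in the RefSeq gene table, up to 24 for Rpl31.

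The controls of the experiments differed in many members. In 17 of the 75, or 22.7%, the control levels lay over 2-fold apart, 15 of them lower in the first experiment, against 1.91% of all genes with the same count minimum. Rps23 had 17.6 CPM in the first control, against 122 and 133 CPM in the second, Rpl35 4.96 CPM against 28.7 and 23.2 CPM, and Rps26 30.5 CPM against 155 and 135 CPM. Of these 17, 6 have under 100 countable positions. Per the labels RNA was extracted in either of 2 ways and libraries of the experiments are not otherwise distinguished, so that experiment, extraction and sequencing cannot be told apart, and each knockdown is compared here with the control of its own experiment only.

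**Figure D4:**
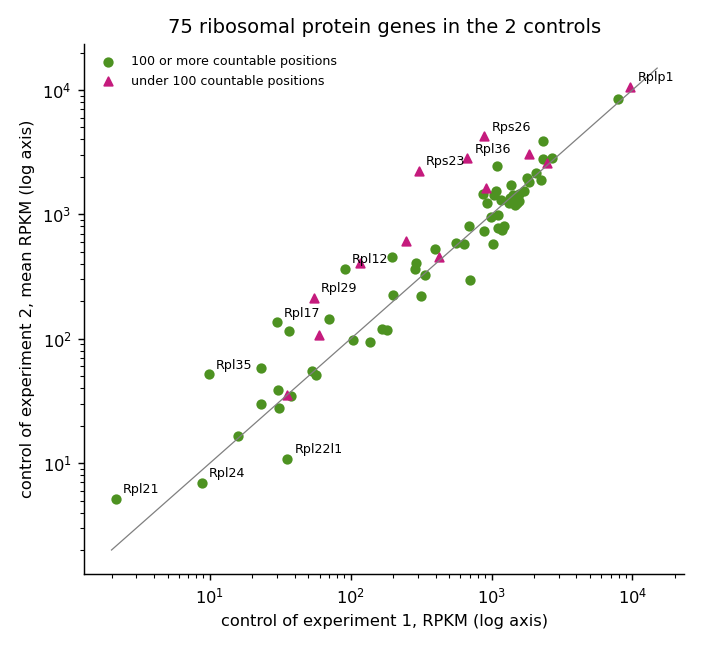
Level of each of the 75 genes (RPKM per countable position, log axes) in the control of the first experiment (x) and the mean of the 2 control libraries of the second (y); the line marks equal levels, and triangles are the 13 genes with under 100 countable positions. Of the 17 genes over 2-fold apart in CPM, 15 lie above the line. Both axes use the positions of the first experiment.

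Of variable segments labelled with a member's symbol, the second experiment allowed 16 cassette exons and 12 retained introns of 11 genes each to be tested. None was called. PSI, the percentage of the reads over a segment that include it, was compared, with calls at an adjusted p under 0.05 and at least 10 points. Of all exons, 0.123% were called after Srrm4 knockdown and 0% after Zfp871 knockdown, and of introns 0% after either, with edgeR for exons and limma for introns. At an unadjusted p under 0.05, 1 member exon was listed after each knockdown, beside 5.71% of all exons after Srrm4 and 4.67% after Zfp871 knockdown, and no member intron, beside 6.04% and 6.2% of all introns. An 836-nt exon labelled Rpl24 (mm9 chr16:55990372-55991207) had PSI 84.3 and 79.3 in the Srrm4 knockdown, against 93.8 and 91.6 in the control. The mean difference was -10.9 points (edgeR adjusted p = 0.803). This exon is marked as differential in the authors' deposited table. It had PSI 82.8 and 89.9 in the Zfp871 knockdown. The first experiment gave 91.9 after Mbnl1/Mbnl2 and 91.4 after Nacc1 knockdown, against 92.0 in the control. Segments labelled Rpl24 ran from mm9 chr16:55980708 to 56006463, a wider span than the gene's own, GRCm38 chr16:55966275-55971437. As this span is longer than the gene, the segments cannot all lie in it. They are thus Rpl24 segments by label only, and which of them, if any, lie in that gene was not tested. The next differences after Srrm4 knockdown were 9 points for an exon of Rps7, 8.26 for an exon of Rpl27a, -7.34 for an intron of Rpl19 and -6.28 for a 145-nt exon labelled Rpl24. After Zfp871 knockdown they were 8.37 for the exon of Rps7, -8.37 for an exon of Rpl14, 6.66 for an intron of Rpl38, -6.34 for the 836-nt exon labelled Rpl24 and -5.33 for an exon of Rpl19.

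In the first experiment Rpl22 had the only segment of a member past 20 points with 95% Clopper-Pearson intervals apart. It was the choice between splice acceptors 6 nt apart (mm9 chr4:151704113-151704139 for the longer form). The longer form had PSI 44.8 after Nacc1 knockdown (34.2 to 55.3, 92 reads), against 75.9 in the control (69.6 to 81.3, 219 reads), a difference of -31.1 points. The shorter form had PSI 55.3 (44.7 to 65.8) after Nacc1 knockdown, against 23.2 (17.9 to 29.5) in the control. After Mbnl1/Mbnl2 knockdown the longer form had PSI 77.1 on 84 reads. The 6 libraries of the second experiment lay between 80.9 and 90.3. Of all alternative sites with at least 20 reads, 0.0548% passed the same rule after Nacc1 knockdown and 0.0822% after Mbnl1/Mbnl2 knockdown, of exons 0.498% and 0.534%, and of introns 0.121% and 0.119%. Members had 263 sites with such reads, 131 of them variable, and the longer and shorter forms of Rpl22 count as separate sites. The gene's level was close in both libraries, at 513 CPM after Nacc1 knockdown and 514 CPM in the control. The next differences were -13.0 points in Rpl37, -12.8 in Rpl10a and 12.2 in Rplp0 after Nacc1 knockdown, and -20.8 in Rpl32 after Mbnl1/Mbnl2 knockdown, all with overlapping intervals. An alternative donor of Rpl27a stayed under 20 points but had intervals apart, with PSI 31.3 (24.7 to 38.6) after Mbnl1/Mbnl2 knockdown, against 17.3 (12.1 to 24.0) in the control. After Nacc1 knockdown the same donor had PSI 28.6 (22.5 to 35.3), with an interval that overlapped that of the same control library. The authors marked it as differential in both knockdowns. Other events of members under 20 points had intervals apart as well, the Rps2 intron below among them.

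**Figure D5:**
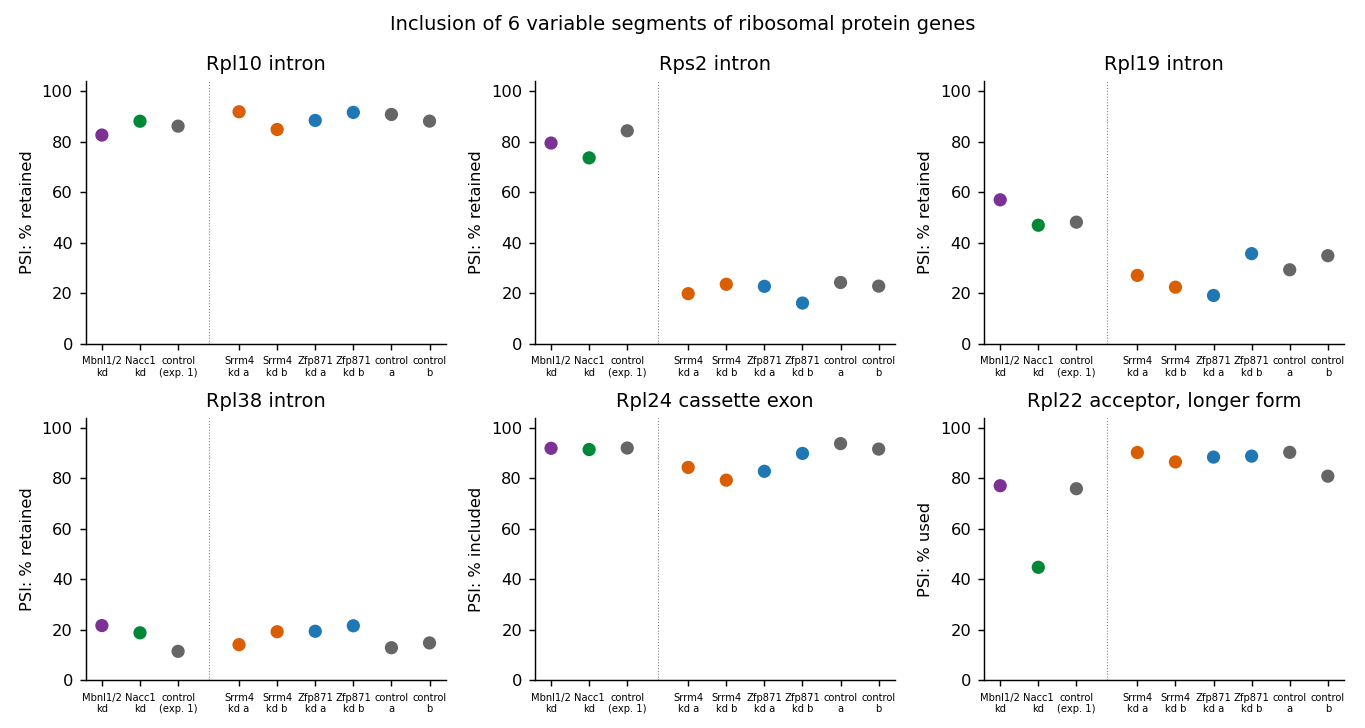
PSI (0 to 100) of 4 introns, 1 cassette exon and 1 splice acceptor labelled with ribosomal protein genes in each library (points, kd means knockdown). The Rps2 intron is at 73.6 to 84.3 in the first experiment and at 16.1 to 24.2 in the other, and the Rpl22 acceptor is lowest, at 44.8, in the Nacc1 knockdown.

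An intron of Rpl10, the X-linked protein that reaches to the peptidyl transferase centre, had PSI 82.6 to 91.8 in all 9 libraries. An intron of Rps2 had 79.4 and 73.6 after Mbnl1/Mbnl2 and Nacc1 knockdown, against 84.3 in their control, and 16.1 to 24.2 in the second experiment. In the first experiment its intervals, 77.0 to 81.7 and 71.2 to 75.8, lay apart from that of the control, 82.3 to 86.1. Both differences were under 20 points. The Rpl19 intron had PSI 46.9 to 56.9 in the libraries of the first experiment, while those of the second had 19.1 to 35.6. An intron of Rpl29 had PSI 95.1 to 100 in all libraries, on 35 to 81 reads. Rps24, known for small alternative exons near its end, was read through alternative sites only. The commonest form of its main acceptor event had PSI 96.6 and 92.7 after Mbnl1/Mbnl2 and Nacc1 knockdown, against 96.2, and 90.9 and 93.4 after Srrm4 knockdown and 91.7 and 95.7 after Zfp871 knockdown, against 89.5 and 95.7.

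Other genes of protein synthesis were read as lists beside the members. Their counts stand beside the shares of all genes called by edgeR, 4.7% after Srrm4 and 2.89% after Zfp871 knockdown, or past the log2 change of 0.5 with Poisson intervals apart, 5.44% after Mbnl1/Mbnl2 and 11.2% after Nacc1 knockdown. Of 4 further cytosolic ribosomal protein genes that the naming rule left out, edgeR called none. Fau, a fusion of a ubiquitin-like protein with a small subunit protein, was nearest to a call, with 3.93 and 4.28 CPM in the Srrm4 knockdown, against 2.42 and 2.34 CPM, a change of 0.79 (SE 0.19, edgeR adjusted p = 0.0719). Gnb2l1, the scaffold protein Rack1 of the small subunit, had 1845 and 1656 CPM in the Srrm4 knockdown, against 1562 and 1448 CPM, a change of 0.22 (edgeR adjusted p = 0.214). Rpl36al had a log2 change of 0.37 after Srrm4 knockdown.

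Among 20 elongation and TOP mRNA genes and 25 initiation factors, edgeR called none after Srrm4 or Zfp871 knockdown, with medians of 0.11 and 0.10 after Srrm4 knockdown and 0.06 and 0.10 after Zfp871 knockdown. The medians were -0.04 and -0.05 after Mbnl1/Mbnl2 knockdown, where no gene of either list was past a log2 change of 0.5, and 0.10 and 0.07 after Nacc1 knockdown. Past the fold after Nacc1 knockdown were Eif2s2, the beta subunit of the factor that brings initiator tRNA, at -1.69, Eif3j at 0.53 and Vim, an intermediate filament gene with a TOP tract, at -0.56. Of 39 ribosome assembly genes, 1 was called after Srrm4 knockdown, Pes1, needed for 60S maturation, at -0.59 (SE 0.11, edgeR adjusted p = 0.0381). The median of the list after Srrm4 knockdown was 0.12, and 27 of the 39 were positive. None was called after Zfp871 knockdown, where 38 of the 39 were positive with a median of 0.17. The medians were -0.09 after Mbnl1/Mbnl2 and 0.17 after Nacc1 knockdown, with no gene past the fold in either.

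Of 15 RNA polymerase I genes, Polr1d was called lower after Srrm4 knockdown at -0.68 (edgeR adjusted p = 0.0341) and Twistnb, a subunit gene of the same enzyme, after Zfp871 knockdown at -0.82 (edgeR adjusted p = 0.0227). Twistnb was past the fold after Nacc1 knockdown as well, at -0.68, and no gene of the list was past it after Mbnl1/Mbnl2 knockdown. The list's median was 0.00 after Srrm4, 0.15 after Zfp871, -0.01 after Mbnl1/Mbnl2 and 0.13 after Nacc1 knockdown. Of its 15 genes, 8, 11, 7 and 10 were positive, in the same order. Among 20 mTOR and Myc regulators, Max, the partner of Myc, was called after Srrm4 knockdown at -0.65 (edgeR adjusted p = 0.0262), and none after Zfp871 knockdown. Sesn2, an inhibitor of mTOR complex 1, was at 1.02 and Mxd4, an antagonist of Myc, at -0.85 after Nacc1 knockdown. Medians of these regulators were 0.05 after Srrm4, 0.00 after Zfp871, 0.01 after Mbnl1/Mbnl2 and 0.09 after Nacc1 knockdown. Of 7 genes of the p53 and ribosomal protein checkpoint, Mdm2, the p53 ubiquitin ligase, was called after Srrm4 knockdown at -0.91 (edgeR adjusted p = 0.0250) and Ccng1, a p53 target, after Zfp871 knockdown at -1.46 (edgeR adjusted p = 0.0261). Ccng1 was at -1.03 after Mbnl1/Mbnl2 knockdown, and the p53 targets Cdkn1a and Bbc3 were at -0.88 and -0.71 after Nacc1 knockdown. The median of these 7 was -0.06 after Srrm4, -0.32 after Zfp871, -0.04 after Mbnl1/Mbnl2 and -0.18 after Nacc1 knockdown. In each comparison 3 of the 7 were positive.

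The mitochondrial ribosomal proteins, which serve a separate ribosome, gave 5 calls among 76 genes after Srrm4 knockdown, where 4.7% of all genes were called, and 1 after Zfp871 knockdown, where 2.89% were. Mrps25 fell by 0.94, Mrpl19 by 0.87, Mrpl42 by 0.68 and Mrps15 by 0.65 on the log2 scale after Srrm4 knockdown, and Mrps33 rose by 0.46, with edgeR adjusted p-values of 0.0196 to 0.0416. Mrpl30 fell by 0.84 after Zfp871 knockdown (edgeR adjusted p = 0.0481). The list's median was 0.13 after Srrm4, 0.15 after Zfp871, -0.07 after Mbnl1/Mbnl2 and 0.07 after Nacc1 knockdown, and no gene of it, of 75 read there, was past the fold in the first experiment. Each pair of knockdowns in an experiment shares its control libraries, so like values in them are not independent.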

How the data were processed

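PolyA RNA-seq of N2A cells, 9 libraries in 6 groups, was analysed from the authors' tables. Build mm9, CASAVA 1.8 and edgeR are named, without a role, per the submitters' processing notes; no source used here names the aligner. Raw counts per gene come from the authors, as do cRPKM (an RPKM type of value, used for the first experiment only, to get the positions counted per gene), log2 fold changes and, in the later experiment only, FDR values (p-values adjusted by the authors). Splicing tables were deposited by the authors as vast-tools output, from whose text cells inclusion and exclusion reads were read, and PSI in percent was computed as inclusion over all reads. Columns in the deposited tables were tied to a group by siRNA name, 1 measure a group and table in the second experiment, and 26 other columns of values were not used.

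Counts of the second experiment were tested with edgeR 4.0.16 (filterByExpr, TMM, quasi-likelihood, 1 fit of 6 libraries; R 4.3.3); the first experiment, with 1 library a group, got CPM (prior count 2 for fold changes) and exact Poisson intervals. Exons with at least 10 reads in every library and a PSI of 2 to 98 in at least 1 were tested with edgeR on both read classes, introns with limma 3.58.1 on the logit of PSI (offset 1). DESeq2 1.42.0, other scalings, minimum counts and left-out libraries were alternatives. The steps were tested on simulated data. Intervals cover counting error only, and PCR copies are not independent molecules. The letters a and b of the columns were not matched to the labels' replicate numbers.

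Members and lists were chosen with earlier results of these data known. Named genes were the called members, the 3 highest and 3 lowest per knockdown, the copies with their parent genes, the P stalk genes, Rps24 events, the extremes per length, called genes of the lists, and the 5 largest PSI differences per comparison. Rpl5, Rpl11, Rps23, Rpl35, Rps26, the introns of Rpl10, Rps2 and Rpl29 and the Rpl27a donor were chosen after their values were seen. Some genes that this rule names are not reported here.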

Additional observations from a re-analysis of the deposited data

How the results depend on the processing

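The calls of single members depended on the fit. After Srrm4 knockdown edgeR called 1 member; DESeq2 called 10, the fit of only the 4 libraries 0 and the leave-one-out fits 0 each. After Zfp871 knockdown edgeR called 0 and DESeq2 2, and the leave-one-out fits 0 each. For Zfp871 against Srrm4 knockdown edgeR called 3, DESeq2 10 and the leave-one-out fits 0 to 2. With the letter as a replicate block edgeR called 26, 9 and 24 members in these 3 comparisons, where it called 36.9%, 31.1% and 41.9% of all genes. The letters are not said to pair libraries; deviations of same-lettered libraries correlated at 0.69 to 0.80 over all genes and at -0.02 to 0.22 over the members, and there are only 2 letters, so the block is given as an alternative only. The cause of these differences was not tested.

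Leaving out 1 library, the median log2 change of members ran from 0.0892 to 0.204 after Srrm4 knockdown, from -0.0584 to 0.0817 after Zfp871 knockdown and from -0.195 to -0.0506 between these knockdowns. The small minus large difference ran from 0.0497 to 0.114, from 0.0148 to 0.0892 and from -0.0828 to -0.00217. From summed counts it was 0.133 after Srrm4 knockdown, 0.0626 after Zfp871 knockdown and -0.0702 between them. After Zfp871 knockdown a minimum of 10 or 500 counts gave 0.0373 and 0.0478. After Mbnl1/Mbnl2 knockdown the median was -0.102 with library totals, -0.148 at 500 counts and -0.144 over members with at least 100 countable positions, an alternative added after seeing the data. The small minus large difference there was -0.0126 at 10 counts, 0.0104 at 500 and 0.00747 over those members, and after Nacc1 knockdown 0.0085 at 500 counts, -0.00593 from summed counts and 0.00961 over those members. At a log2 fold of 1 no member was past it after Mbnl1/Mbnl2 knockdown (0) or Nacc1 knockdown (0). Counts of splicing calls stayed 0 in every alternative run, replicate block included. Members had 99 to 164454 counts per library.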
